A study of Mus musculus with 6 samples.

Results

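The 8 genes of urate handling described here were read in whole mouse kidney, namely the transporters *Slc22a12*, *Slc2a9*, *Slc17a1*, *Slc17a3* and *Abcg2*, the scaffold gene *Pdzk1*, and the enzymes *Xdh* and *Uox*. They were the 8 of the 54532 genes in the deposited table whose Ensembl identifiers carry these symbols in GENCODE M21. The members were chosen by function and by the FPKM and fold change of *Slc22a12*, known to be about halved in the transgenic libraries. Every KSPAPN against Control value of these genes is therefore a description, given with a standard error (SE) and no p. Where a member is said below to pass a threshold on the adjusted p, that too is a description and not a test.

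RNA of whole kidneys was sequenced in 6 libraries, 3 of KsprtTA mice (Control) and 3 of KsprtTA/TRE-Adiponectin mice (KSPAPN), to ask what adiponectin made by the kidney epithelium itself does there. Both groups ate chow with doxycycline at 600 mg/kg for 4 days, and each library is a pool of 3 mice, so that a group stands for 9 mice and replicate error here is that of pools. The Ksp promoter drives rtTA in the tubule epithelium, along the nephron as far as the collecting duct, and in KSPAPN rtTA with doxycycline switches on adiponectin. The study used male mice on a C57BL/6 background, and no age for these libraries was found in the labels or the methods. Control mice carried KsprtTA without the adiponectin transgene in the study's description, whereas their labels say wild type (WT). The labels name kidney as the tissue while their extraction text speaks of liver. Kidney genes were present in every library (the summed level of 16 proximal tubule genes was 4620 to 6209 FPKM). Hepatocyte genes differed among themselves. *Cps1*, named after its values were seen, had at most 31 reads, whereas *Alb* had 15 to 213, *Fga* 220 to 407 and *Ttr* 967 to 3076. The summed level of 10 hepatocyte genes was 56.2 to 164 FPKM, and a part of liver RNA was not tested. *Adipoq* had 0 to 2 reads in the Control libraries and 17483 to 26811 in the KSPAPN libraries. Total counts per library ran from 17183358 to 20871173, the largest being KSPAPN replicate 1. FPKM, fragments normalised for gene length and library size, were used as the authors deposited them for levels, and log2 fold changes (KSPAPN against Control) came from edgeR on the deposited counts.

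Urate is a late product of purine breakdown. Xanthine oxidoreductase, the product of *Xdh*, makes it from hypoxanthine and xanthine, and in mice, unlike humans, urate oxidase (*Uox*) degrades it further, mainly in the liver. In the proximal tubule the apical exchanger URAT1 (*Slc22a12*) takes filtered urate back into the cell and GLUT9 (*Slc2a9*) passes it on, while the phosphate transporter family members NPT1 (*Slc17a1*) and NPT4 (*Slc17a3*) and the ATP-driven pump ABCG2 move urate towards the lumen. PDZK1 is a PDZ-domain scaffold under the brush border that binds the tails of several of these transporters.

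Of the 8 genes, 7 passed the filter on low counts, and *Uox* did not. All 7 had a log2 fold change below 0, with a median of -0.26, where 48.1% of the 16017 genes tested were below 0 and the median of all genes was 0.01. A single gene, *Slc22a12*, was called at an adjusted p under 0.05, the call used throughout. Across all genes 2.65% were called, 2.25% as lower and 0.393% as higher. DESeq2 called 3 of the members and 6.33% of the genes it tested. In 3 of the 7, *Slc22a12*, *Slc17a1* and *Slc17a3*, every KSPAPN library was below every Control library in FPKM, as was the case for 13.5% of all genes tested. The group was chosen with this contrast known, so nothing is read from these counts.

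**Figure D1:**
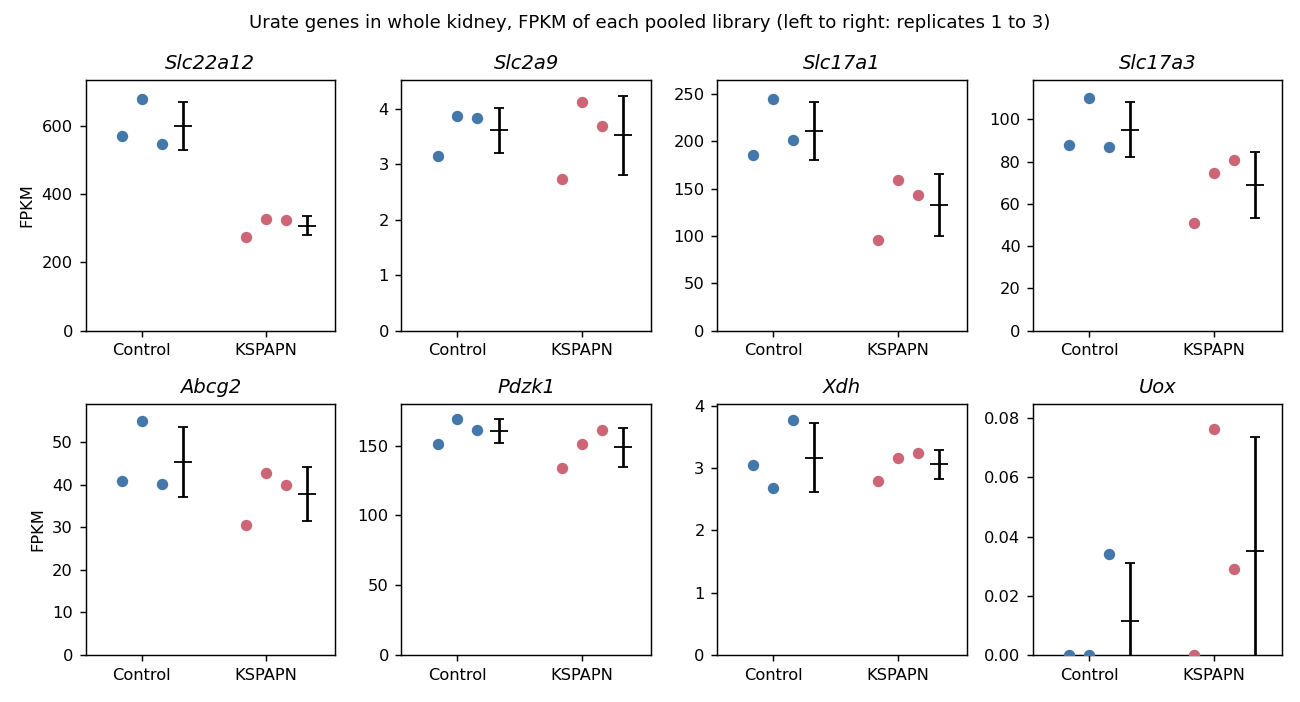
FPKM of each urate gene (vertical axes, linear, from 0) in the 3 Control (blue) and 3 KSPAPN (red) libraries, with points ordered by replicate number from left to right and black bars giving the mean ± SD. *Slc22a12*, *Slc17a1* and *Slc17a3* have no KSPAPN library as high as the lowest Control library, and the groups of the other 5 genes overlap.

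The sequences before the transcription starts of 4 genes are shown, the 3 whose groups did not overlap and *Pdzk1*, whose groups did, so that their starts can be compared. Each is the 250 bases before the start in RefSeq (GRCm38.p6), 5′ to 3′ on the gene's strand, with each CpG, the dinucleotide that DNA methylation acts on, in capitals. *Slc22a12* is chr19:6543071-6543320 on the minus strand, *Slc17a1* (its first of 2 windows) chr13:23868768-23869017, *Slc17a3* chr13:23839184-23839433 and *Pdzk1* (its first of 2 windows) chr3:96829815-96830064, the last 3 on the plus strand. The windows of *Slc17a1* and *Pdzk1* lie inside the GENCODE bounds of their genes, which start further upstream.
Slc22a12: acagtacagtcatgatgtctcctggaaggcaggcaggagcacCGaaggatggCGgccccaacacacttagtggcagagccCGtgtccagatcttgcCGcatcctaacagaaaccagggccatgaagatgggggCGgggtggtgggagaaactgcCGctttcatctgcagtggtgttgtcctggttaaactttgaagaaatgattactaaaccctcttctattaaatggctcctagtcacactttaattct
Slc17a1: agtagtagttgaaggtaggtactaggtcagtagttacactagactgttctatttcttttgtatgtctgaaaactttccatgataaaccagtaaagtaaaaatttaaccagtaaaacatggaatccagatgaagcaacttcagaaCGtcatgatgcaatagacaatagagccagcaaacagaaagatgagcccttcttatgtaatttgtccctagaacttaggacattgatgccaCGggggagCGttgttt
Slc17a3: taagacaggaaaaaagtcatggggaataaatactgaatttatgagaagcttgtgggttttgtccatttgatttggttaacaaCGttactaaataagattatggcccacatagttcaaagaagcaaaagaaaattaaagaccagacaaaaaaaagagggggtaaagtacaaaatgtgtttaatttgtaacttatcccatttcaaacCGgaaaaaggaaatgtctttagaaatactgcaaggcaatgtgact
Pdzk1: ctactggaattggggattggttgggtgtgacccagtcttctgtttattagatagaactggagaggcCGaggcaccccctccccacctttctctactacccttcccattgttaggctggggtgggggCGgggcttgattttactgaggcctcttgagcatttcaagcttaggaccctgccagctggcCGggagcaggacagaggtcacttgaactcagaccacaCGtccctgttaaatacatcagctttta
The window of *Slc22a12* held 6 CpG, that of *Slc17a1* 3, that of *Slc17a3* 2 and that of *Pdzk1* 4. The letters CG, which read the same on both strands, were found in 92.1% of 32851 windows of 250 bases over all genes, with a median of 6 in a window. The GC content was 50.8% for *Slc22a12*, 38% for *Slc17a1*, 32.8% for *Slc17a3* and 53.2% for *Pdzk1*. The windows shown for the neighbours on chromosome 13 thus held more A and T than G and C. The second window of *Slc17a1*, not shown, had a GC content of 46.8%. The windows not shown held 0 CpG in the second window of *Slc17a1*, 1 in *Slc2a9*, 4 in *Uox*, 5 in the second window of *Pdzk1*, and 3, 10 and 23 in the 3 windows of *Abcg2*. These counts are descriptions of the sequence, and methylation was not measured in these libraries.

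*Slc22a12* (ENSMUSG00000061742), the gene of the urate reabsorber URAT1, lies on chromosome 19 from 6535845 to 6543032 (GRCm38, minus strand). Its FPKM was 570.0, 679 and 547 in the 3 Control libraries and 274, 325 and 322 in the 3 KSPAPN libraries. All KSPAPN libraries were close together and well below the lowest Control library, so the groups did not overlap. The mean was 599 ± 70.8 FPKM (SD, n = 3 pools) in Control and 307 ± 28.9 (SD, n = 3) in KSPAPN. Reads counted on the gene were 21612 to 26506 in Control and 13386 to 15036 in KSPAPN, and the log2 fold change was -0.96 (SE 0.12, 95% interval -1.22 to -0.70), or 0.515 times the Control level. By mean FPKM the gene stood at place 41 of 21995 protein-coding genes in Control and at place 79 in KSPAPN, so in both groups URAT1 mRNA was among the abundant messages of the kidney. Leaving out 1 library at a time gave -1.01 to -0.86. The gene overlaps *Nrxn2*, a neurexin gene on the opposite strand, and 27.4% of the 100-base stretches of its longest transcript also occur in *Nrxn2* transcripts on 1 strand or the other. No source used here states the strandedness of the counting, so reads of the overlap cannot be told apart. *Nrxn2* had 93 to 186 reads per library and a log2 fold change of -0.57 (SE 0.20, adjusted p = 0.154 from edgeR).

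*Slc2a9* (ENSMUSG00000005107), which encodes the urate carrier GLUT9, lies on chromosome 5 from 38349273 to 38503143 (minus strand). Its FPKM was 3.14, 3.86 and 3.83 in Control and 2.73, 4.12 and 3.69 in KSPAPN. The KSPAPN libraries held both the lowest and the highest value of the 6, and the groups overlapped. The means were 3.61 ± 0.405 and 3.51 ± 0.714 FPKM (SD, n = 3 each), and the log2 fold change was -0.04 (SE 0.17, 95% interval -0.41 to 0.33). Its sign was below 0 in 11 of 15 settings, that is the edgeR fit and 14 alternatives. In the same libraries the FPKM of *Slc22a12*, the apical partner of GLUT9 in reabsorption, was 143 to 181 times that of *Slc2a9* in Control and 79.0 to 100 times in KSPAPN.

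The genes of urate secretion were spread between these. *Slc17a1* (ENSMUSG00000021335), the gene of NPT1, lies on chromosome 13 from 23867750 to 23895730 (plus strand). Its FPKM was 186, 245 and 202 in Control and 95.8, 159.6 and 143 in KSPAPN. The groups did not overlap, and KSPAPN replicate 1 was far below the other two. The means were 211 ± 30.7 and 133 ± 33.2 FPKM (SD, n = 3 each), and the log2 fold change was -0.66 (SE 0.17, 95% interval -1.04 to -0.28). It was -0.46 without KSPAPN replicate 1 and -0.81 without KSPAPN replicate 2, the extremes with 1 library left out. The gene was called in 4 of 15 settings and not in the edgeR fit.

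*Slc17a3* (ENSMUSG00000036083), the gene of NPT4, lies next to it on chromosome 13 from 23839434 to 23860716 (plus strand), with 7033 bases between them. Its FPKM was 87.8, 110.1 and 87.1 in Control and 51.0, 74.5 and 80.6 in KSPAPN. The groups did not overlap, although KSPAPN replicate 3 came near the lower Control libraries. The means were 94.998 ± 13.1 and 68.7 ± 15.6 FPKM (SD, n = 3 each), with a log2 fold change of -0.46 (SE 0.16, 95% interval -0.82 to -0.11) and a call in 3 of 15 settings. The ratio of *Slc17a1* to *Slc17a3* was 2.22 ± 0.0987 in Control and 1.93 ± 0.187 in KSPAPN (SD, n = 3 each), and these ranges overlapped. The other genes of this cluster, named after their values were seen, did not follow the pair. *Slc17a2* was barely expressed, with 10, 3 and 10 reads in Control and 25, 22 and 24 in KSPAPN (log2 fold change 1.41, SE 0.48, adjusted p = 0.147 from edgeR). *Slc17a4*, which starts 159 bases past the end of *Slc17a1* and runs on the other strand, had a log2 fold change of 0.01 (SE 0.20, adjusted p = 0.994 from edgeR).

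*Abcg2* (ENSMUSG00000029802), the gene of the ATP-driven urate pump, lies on chromosome 6 from 58584523 to 58695676 (plus strand). Its FPKM was 40.9, 54.9 and 40.1 in Control and 30.6, 42.7 and 40.0 in KSPAPN. The groups overlapped, with Control replicate 2 the highest and KSPAPN replicate 1 the lowest. The means were 45.3 ± 8.31 and 37.8 ± 6.38 FPKM (SD, n = 3 each), and the log2 fold change was -0.26 (SE 0.15, 95% interval -0.59 to 0.07). Of the members it moved most with the processing: the value was -0.46, and called, once a trend against GC content and transcript length was removed, and -0.10 without Control replicate 2. The GC content of its longest transcript was 39.2%, the lowest of the 8.

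*Pdzk1* (ENSMUSG00000038298), the scaffold gene, lies on chromosome 3 from 96829284 to 96870926 (plus strand). Its FPKM was 151.5, 169.2 and 160.8 in Control and 133.7, 151.2 and 161.0 in KSPAPN. These groups overlapped, and the Control libraries differed little. The means were 160.5 ± 8.88 and 148.6 ± 13.9 FPKM (SD, n = 3 each), with a log2 fold change of -0.11 (SE 0.10, 95% interval -0.33 to 0.12). *Gpr89*, a pH regulator of the Golgi, overlaps its end on the opposite strand, and 33% of the 100-base stretches of the longest *Pdzk1* transcript occur in *Gpr89* transcripts too. *Gpr89* had 4.86 to 5.72 FPKM and a log2 fold change of 0.02 (SE 0.11, adjusted p = 0.941 from edgeR).

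Both enzymes were low in kidney. *Xdh* (ENSMUSG00000024066), which encodes the enzyme that makes urate, lies on chromosome 17 from 73883895 to 73950196 (minus strand). Its FPKM was 3.05, 2.68 and 3.78 in Control and 2.79, 3.15 and 3.23 in KSPAPN. All KSPAPN libraries lay inside the Control range. The means were 3.17 ± 0.557 and 3.06 ± 0.235 FPKM (SD, n = 3 each), and the log2 fold change was -0.05 (SE 0.14, 95% interval -0.35 to 0.26), with a sign below 0 in 12 of 15 settings. *Uox* (ENSMUSG00000028186), the gene of the urate-degrading enzyme, lies on chromosome 3 from 146570426 to 146632305 (plus strand) and had 0, 0 and 3 reads in Control and 0, 7 and 3 in KSPAPN. Per total count the 10 reads of KSPAPN were 3.02 times as frequent as the 3 of Control (95% exact interval 0.778 to 17.1, for counting error only). Of 10 genes of hepatocytes, the cells best known for *Uox*, some had their most reads in KSPAPN replicates 2 and 3, which held all KSPAPN reads of *Uox*, and others did not (the genes given here are named after their values were seen). *Cps1*, a urea cycle enzyme, had 0, 0 and 0 reads in Control and 1, 14 and 31 in KSPAPN, *Serpina3k* 0, 3 and 3 against 0, 23 and 34, and *Alb* 111, 100 and 47 against 15, 191 and 213. *Ttr* had 2893, 3076 and 1492 reads against 1428, 1413 and 967, and *Fga* 288, 407 and 258 against 220, 355 and 266, both with their most reads in Control replicate 2. The summed level of 10 hepatocyte genes, most of it *Ttr*, was 83.7 to 164 FPKM in Control and 56.2 to 86.8 in KSPAPN. The part of hepatocyte RNA in the *Uox* reads was not tested.

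In order of mean FPKM in Control the members ran *Slc22a12*, *Slc17a1*, *Pdzk1*, *Slc17a3*, *Abcg2*, *Slc2a9*, *Xdh* and *Uox*. In KSPAPN *Pdzk1* stood above *Slc17a1*, and the remaining order was unchanged. In Control *Slc2a9* and *Xdh* differed by less than their added SDs, and all other neighbours in the order were apart by more than their added SDs. In KSPAPN *Pdzk1* and *Slc17a1*, and again *Slc2a9* and *Xdh*, differed by less than their added SDs.

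The libraries did not contribute alike. KSPAPN replicate 1 was the lowest of the 6 in 6 of the 8 genes and below every Control library in 6, whereas KSPAPN replicates 2 and 3 were below every Control library in 4 each. Without KSPAPN replicate 1 the log2 fold change was -0.87 for *Slc22a12*, -0.46 for *Slc17a1*, -0.28 for *Slc17a3* and -0.12 for *Abcg2*. The plot of fold changes under each setting shows the same order of the 4 genes with the largest changes wherever all 6 libraries were used.

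**Figure D2:**
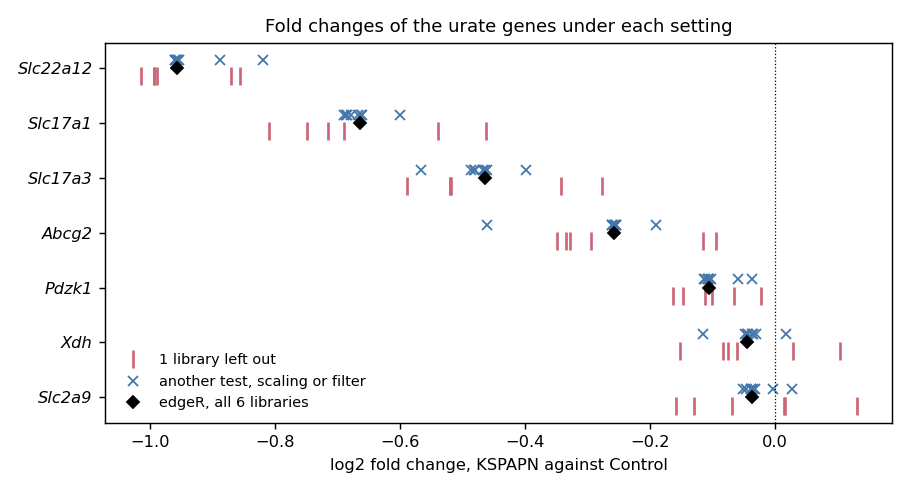
Log2 fold change of each tested urate gene (horizontal axis) in edgeR with all 6 libraries (black diamond), under other tests, scalings and filters (blue crosses) and with 1 library left out (red ticks). The values of *Slc22a12* stay between -1.01 and -0.82, and those of *Slc2a9* and *Xdh* fall on both sides of 0.

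Because bulk tissue was read, fewer cells of a type and less RNA per cell cannot be told apart. Levels were also set against each other within a library, as ratios of FPKM. The gene above the line is *Slc22a12*, chosen for its lower level, so a lower ratio to a gene that differs little is given with the choice and these ratios are descriptions. The ratio of *Slc22a12* to its scaffold *Pdzk1* was 3.76, 4.01 and 3.40 in Control and 2.05, 2.15 and 2.0 in KSPAPN. The 3 KSPAPN values lay close together, far below Control. Against the pump *Abcg2* the ratio was 13.3 ± 0.824 in Control and 8.21 ± 0.685 in KSPAPN, and against *Slc17a1* and *Slc17a3* added together it was 1.96 ± 0.104 and 1.57 ± 0.262 (SD, n = 3 each). The groups did not overlap in either, and the distance was smaller against the secretory pair, where KSPAPN replicate 1 with 1.87 came near the lowest Control library with 1.89. Of 16 proximal tubule genes the ratio to 15 was lower in KSPAPN without overlap, and the exception was *Slc7a13*, with ratios of 1.80, 1.80 and 2.40 in Control and 4.46, 2.18 and 2.63 in KSPAPN. Among the 15 it was 0.499 ± 0.0891 and 0.286 ± 0.0511 for *Slc34a1*, the phosphate transporter, and 4.90 ± 0.407 and 3.19 ± 0.326 for *Lrp2*, the endocytic receptor megalin (SD, n = 3 each). The share of all genes with such a ratio is not given, so nothing is read from the 15 about proximal tubule genes.

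**Figure D3:**
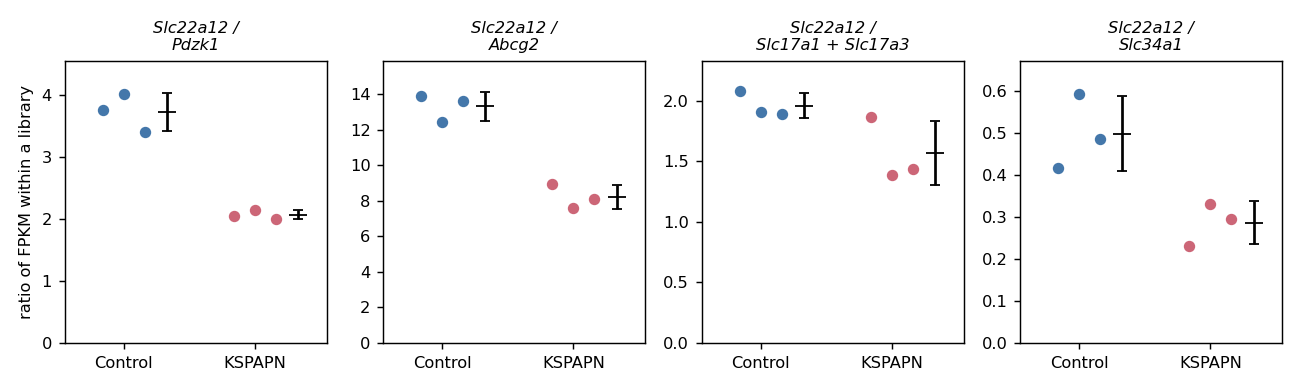
Ratio of the FPKM of *Slc22a12* to that of other genes within each library (vertical axes, linear, from 0) in Control (blue) and KSPAPN (red), with black bars giving the mean ± SD of 3 libraries. The ratio to *Pdzk1* is 3.40 to 4.01 in Control and 2.0 to 2.15 in KSPAPN, and the groups overlap in none of the 4 panels.

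Markers of kidney cell types moved beside these values. Of 16 proximal tubule genes 14 had a log2 fold change below 0, with a median of -0.24, and 3 fell, namely *Slc7a13* (an amino acid transporter of the late proximal tubule, -1.46, SE 0.28, adjusted p = 0.0259 from edgeR), *Miox* (inositol breakdown, -0.60, SE 0.12, adjusted p = 0.0268) and *Ggt1* (a brush border peptidase, -0.52, SE 0.12, adjusted p = 0.0483). None was called without Control replicate 1, without Control replicate 2 or without KSPAPN replicate 3. *Slc7a13* was called in 10 of 15 settings, *Miox* in 8 and *Ggt1* in 5. DESeq2 called 4 of the 16 as lower, and 6.33% of the genes it tested in either direction. Over all genes tested with edgeR 48.1% were below 0 and 2.25% were called as lower. The summed FPKM of the 16 was 5392 to 6209 in Control and 4620 to 4952 in KSPAPN, and none of them was at 0. The most abundant others, *Slc34a1*, *Slc27a2* (a fatty acid transport protein) and *Fbp1* (a gluconeogenic enzyme), had log2 fold changes of -0.15, -0.02 and -0.07. Of 10 genes of the medulla and distal nephron 5 were below 0, with a median of 0.02 and a summed level of 1386 to 1588 FPKM in Control and 1332 to 1894 in KSPAPN, and *Slc12a1*, the sodium transporter of the thick ascending limb, rose by 0.52 (SE 0.11, adjusted p = 0.0437 from edgeR) and was called in 7 of 15 settings. Of all genes tested 18.7% had an unadjusted p under 0.05 in either direction. In this list there were 3 lower and 1 higher at that level, and DESeq2 called 1 lower and 1 higher. The gene lower with DESeq2 was *Slc4a1*, the anion exchanger of intercalated cells, named after its value was seen (-0.71, SE 0.20, adjusted p = 0.0893 from edgeR and 0.00993 from DESeq2). All 6 glomerular genes were above 0, with a median of 0.32 and a summed level of 39.6 to 60.6 FPKM in Control and 56.6 to 78.2 in KSPAPN, and 0 were called by edgeR or DESeq2 (1 at an unadjusted p under 0.05). The 9 endothelial, stromal and macrophage genes summed to 43.1 to 53.6 FPKM in Control and 40.6 to 59.3 in KSPAPN. None of them was called by either, and 0 had an unadjusted p under 0.05. The part of these cell types in the values of the urate genes was not tested.

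Other genes of urate transport were read from a list of 16 by function, written with earlier results of these data known. All 16 were tested, 10 were below 0, the median was -0.11, 3 were called as lower and 0 as higher. Over all genes tested 48.1% were below 0, 2.25% were called as lower and 0.393% as higher. *Slc22a7* (OAT2) had 118, 141 and 113 FPKM in Control and 20.5, 41.9 and 53.7 in KSPAPN. Every KSPAPN library was under the lowest Control library by a wide margin. This organic anion transporter fell by 1.68 on the log2 scale (SE 0.27, adjusted p = 0.0136 from edgeR), a larger value than that of *Slc22a12*, and the call was kept in 12 of 15 settings. *Slc22a6* (OAT1), which takes organic anions including urate up from the blood, had 265, 293 and 257 FPKM in Control and 187, 197 and 206 in KSPAPN. It fell by 0.46 (SE 0.10, adjusted p = 0.0388), and *Slc22a13* (OAT10), an apical urate and nicotinate exchanger, fell by 0.72 (SE 0.16, adjusted p = 0.046). *Slc22a6* was called in 7 of 15 settings and *Slc22a13* in 6. The number called in the list was 0 without Control replicate 1 and 1 without Control replicate 2, Control replicate 3 or KSPAPN replicate 3. The most abundant of the rest, *Pdzk1ip1*, *Slc9a3r1* (the scaffold NHERF1) and *Slc22a8* (OAT3), had log2 fold changes of -0.37, -0.28 and -0.15 and were not called by edgeR. Of these *Pdzk1ip1* alone was called by DESeq2 (adjusted p = 0.031 from DESeq2). *Slc22a6*, *Slc22a7* and *Slc22a13* belong to the same SLC22 family as *Slc22a12*, and so does *Slc22a8*, which was not called.

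**Figure D4:**
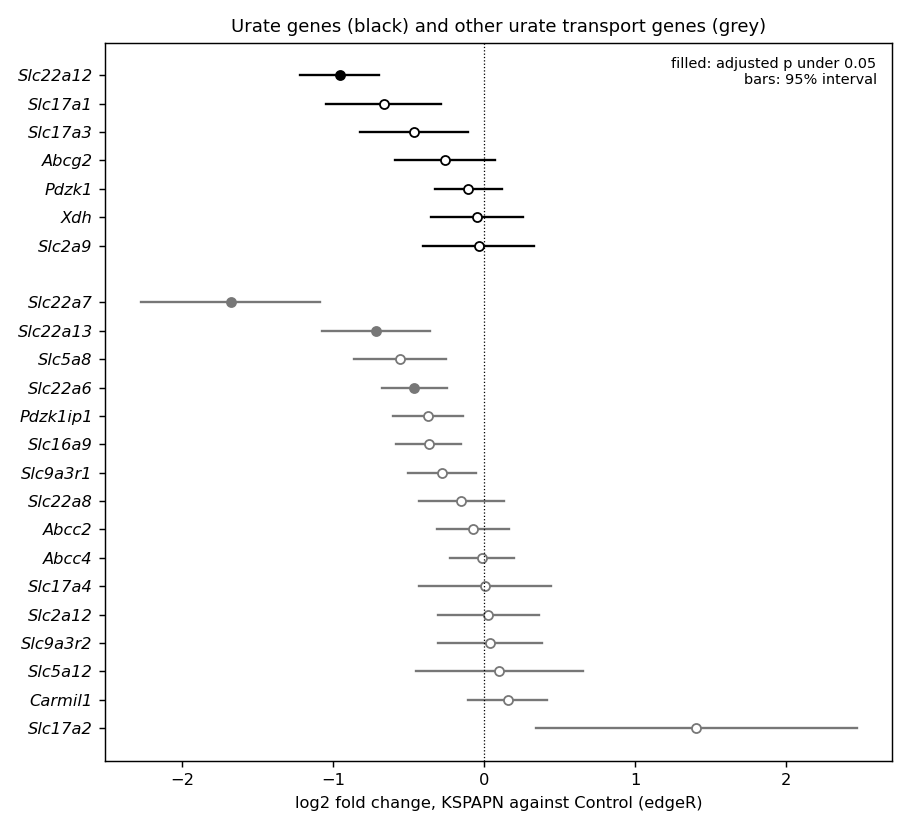
Log2 fold change of KSPAPN against Control from edgeR (horizontal axis) with 95% intervals for the 7 tested urate genes (black) and 16 other urate transport genes (grey), where filled points have an adjusted p under 0.05. The filled points are *Slc22a12*, *Slc22a7*, *Slc22a13* and *Slc22a6*, all between -1.68 and -0.46. *Slc22a12* was chosen by this contrast, so its fill is a description and not a test.

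The enzymes that feed urate synthesis were examined as 2 further lists. Of 22 genes of purine breakdown and salvage 19 were tested, with a median of -0.13, and 0 were called by edgeR (at an unadjusted p under 0.05 there were 3 lower and 2 higher, and DESeq2 called 1 as lower). The most abundant, *Hprt* and *Aprt*, which salvage purine bases, had log2 fold changes of 0.33 (SE 0.10, adjusted p = 0.115 from edgeR) and -0.43 (SE 0.12, adjusted p = 0.0918 from edgeR), and *Nt5c*, a nucleotidase, of 0.11. *Aprt* was the gene that DESeq2 called as lower (adjusted p = 0.0374 from DESeq2). *Urad* and *Allc*, which act after *Uox*, had no reads in any library. Of 13 genes of purine synthesis 0 were called by edgeR or DESeq2 (at an unadjusted p under 0.05 there were 1 lower and 1 higher), with a median of -0.06. *Paics*, *Adss* and *Prps2*, the most abundant of them, had log2 fold changes of -0.07, 0.14 and 0.08. Both lists held genes on both sides of 0, with 14 of the 19 and 7 of the 13 tested below it. Of all genes tested 48.1% were below 0, and 18.7% had an unadjusted p under 0.05 in either direction.

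**Figure D5:**
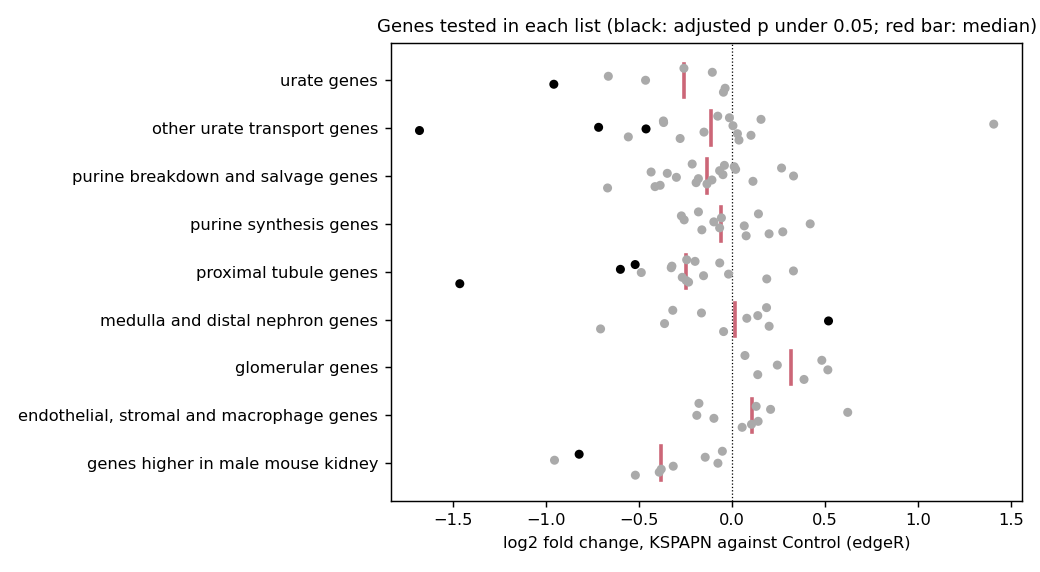
Log2 fold change from edgeR (horizontal axis) of every tested gene in the urate genes and 8 further lists, with genes at an adjusted p under 0.05 in black, others in grey and the median of each list as a red bar. The median is -0.26 for the urate genes, -0.24 for the proximal tubule genes and 0.32 for the glomerular genes. The urate genes were chosen with this contrast known, so their marks are descriptions.

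The genes whose log2 CPM over the 6 libraries was most like that of *Slc22a12*, of 11161 protein-coding genes with a mean of at least 1 FPKM, were *Slc22a6* (Pearson's r = 0.995), *Cyp7b1* (0.995), *Lamtor5* (0.994), *Slc22a2* (0.994) and *Sap30* (0.994). These r are descriptions over 6 libraries that fall into 2 groups, and all genes of a library share its scaling. *Slc22a2*, the organic cation transporter OCT2, had a mean of 142 FPKM in Control and 99.2 in KSPAPN. *Cyp7b1*, an oxysterol hydroxylase, had 68.3 and 15.96 FPKM. Among the members *Slc17a1* came nearest, with r = 0.910 at place 514, followed by *Slc17a3* (0.858), *Abcg2* (0.722), *Pdzk1* (0.673), *Slc2a9* (0.274) and *Xdh* (-0.0037). In deviations from the group means, which leave the difference between groups out, r with *Slc22a12* was 0.984 for *Abcg2*, 0.902 for *Slc17a3*, 0.861 for *Slc17a1* and -0.433 for *Xdh*. The neighbours *Slc17a1* and *Slc17a3* had r = 0.965 with each other.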

How the data were processed

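Poly(A) RNA-seq libraries of pooled whole kidneys (3 Control, 3 KSPAPN) were taken from a deposited table that gives raw read counts and FPKM per gene. The counts are whole numbers deposited without normalization, and the FPKM were computed by the authors from gene length and library size. The submitters' processing notes name STAR 2.5, TopHat, HTSeq 0.6.1, DESeq2 and edgeR, without their roles. The sources used here do not give the genome build, the annotation or the strandedness. Each table column was matched to its library by name.

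Symbols and coordinates came from GENCODE M21 (GRCm38), which matched 54495 of 54532 identifiers. Counts were compared with edgeR 4.0.16 (R 4.3.3) by its quasi-likelihood test, two-sided, with TMM factors, filterByExpr for low counts (at least 10 counts, 15 in total) and Benjamini-Hochberg adjustment over 16017 genes. P-values measure the spread between pools. Without molecular identifiers, an interval from counts covers only counting error. A group of 3 libraries limits the precision more than depth for all members but *Uox*. Simulated counts, with the same replicate spread for every gene, were run through edgeR, DESeq2, limma, the replicate block and the GC content correction. The changed genes were well counted with large changes, and the libraries were independent. Smaller changes and the replicate structure here were thus not covered. Sequences before transcription starts came from RefSeq (GRCm38.p6), which held windows for 7 of the members. *Xdh* was not among them.

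The members and gene lists were chosen with earlier results of these data known. Genes were named where they are members, where a list gene was called (up to 5), where they are among the 3 most abundant others of a list, or where they are among the 5 most like *Slc22a12*. Genes named otherwise are said to be. The 10 lists were other urate transport, purine breakdown and salvage, purine synthesis, proximal tubule, medulla and distal nephron, glomeruli, endothelium with stroma and macrophages, hepatocytes, adipocytes, and genes higher in male mouse kidney. Another list is not reported here.

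Alternatives were DESeq2 1.42.0, RLE factors, no filter on low counts, scaling by total counts only, limma 3.58.1 on log2(FPKM + 1) and log2(FPKM + 0.1), the replicate number as a block, correction for GC content and transcript length (natural splines with 5 degrees of freedom), and each library left out in turn. Python 3.11.15 with pandas 2.3.3 was used for tables, intervals were computed with scipy 1.17.1 and plots were drawn with matplotlib 3.10.9.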

Additional observations from a re-analysis of the deposited data

How the results depend on the processing

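The log2 fold changes of the 7 tested urate genes moved by less than the spread between replicates in all 14 alternatives. The number of urate genes called was 1 in edgeR, 3 with DESeq2, 3 without the filter on low counts, 2 with the replicate block and 4 with the GC content and length trend removed. Of all genes tested 2.65% were called in edgeR, 6.33% with DESeq2, 4.55% without the filter, 5.80% with the replicate block, 1.66% with total counts only, 0.799% and 0.743% with limma on log2(FPKM + 1) and log2(FPKM + 0.1), and 0.236% (without Control replicate 1) to 4.46% (without KSPAPN replicate 1) with 1 library left out. With the GC content and length trend removed 2.93% of all genes were called. The lower calls numbered 361 against 63 higher ones in edgeR. With total counts only they were 195 against 71, and the median of all genes was 0.08. Other urate transport genes called were 3 in edgeR, 6 with DESeq2, 6 without the filter, 5 with the replicate block, 1 with total counts only, 0 with either limma fit and 0 to 4 with 1 library left out. Purine breakdown and salvage genes called were 0 in edgeR, 1 with DESeq2, 3 without the filter, 2 with the replicate block and 0 to 1 with 1 library left out. Proximal tubule genes called were 3 in edgeR, 4 with DESeq2, 7 without the filter, 4 with the replicate block and 0 with either limma fit. They were 1 with the GC content and length trend removed and 0 to 3 with 1 library left out. The cause of these shifts was not tested.

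The libraries share replicate numbers, but nothing in the labels ties a number to a litter or day, so the edgeR fit did not pair the samples. The deviations of same-numbered libraries from their group means correlated at r = 0.0537, 0.154 and 0.173. Every library correlated best with its own number in the other group. With the number as a block 5.80% of genes were called, against 2.65% without it. Whether the numbers mark samples handled together was not tested. With 3 pools per group a difference of the size seen in *Abcg2* lies within the 95% interval around 0, and for *Uox* the reads are too few to test.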

Other observations

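Among lists not described above, the 9 genes known to be higher in male mouse kidney all had a log2 fold change below 0. Their median was -0.38, against 0.01 for all genes tested, and 1 was called as lower with edgeR and with DESeq2. Of all genes tested 48.1% were below 0, 2.25% were called as lower with edgeR and 18.7% had an unadjusted p under 0.05 in either direction. *Cyp2e1*, a cytochrome P450 that oxidises ethanol and acetone, fell by 0.82 (SE 0.18, adjusted p = 0.0399 from edgeR) and was called in 10 of 15 settings. The most abundant others were *Kap*, the kidney androgen-regulated protein (-0.32, SE 0.21), *Cyp4b1* (-0.95, SE 0.24, adjusted p = 0.0648 from edgeR) and *Odc1*, the first enzyme of polyamine synthesis (-0.38, SE 0.14, adjusted p = 0.178 from edgeR). Of 10 hepatocyte genes 6 were tested and *Ttr*, which encodes the thyroxine carrier transthyretin, fell by 1.17 (SE 0.25, adjusted p = 0.0388 from edgeR) and was called in 9 of 15 settings, while *Alb* had a log2 fold change of 0.55 (SE 0.68), *Apoa2* of -0.12 (SE 0.29) and *Fga* of -0.37 (SE 0.26). Of 6 adipocyte genes 2 were tested and 0 were called by edgeR or DESeq2 (0 at an unadjusted p under 0.05), and the most abundant, *Cfd* and *Cidec*, had log2 fold changes of 0.46 (SE 0.46) and -0.11 (SE 0.55). The relation of these values to the urate genes was not tested.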
